A study of Mus musculus with 4 samples.

Results

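The nuclear pore and nuclear transport genes described here encode the subunits of the nuclear pore, the carriers that pass through it, the Ran GTPase cycle that drives them and the adaptors that export mRNA. They were chosen by name: protein-coding genes of the 2 deposited tables whose symbol begins with or is one of a fixed set (Nup and a digit, Kpna, Kpnb, Ipo, Xpo, Tnpo, Ran, Ranbp, Rangap, Rangrf, Rcc1, Rcc2, Cse1l, Nxf1, Nxt1, Nxt2, Thoc, Aaas, Ndc1, Tpr, Pom121). The name rule used no measured value of its own, but only genes at p below 0.05 are in the tables, so every member had already passed a test for a difference between the groups. It found 40 genes of 4295 listed. A further 35 protein-coding genes of the GENCODE M21 annotation match the rule and are not among the listed genes, among them Cse1l, Rangap1, Nup62, Nup93, Nup205, Kpna3 and Ipo7; they are not analysed here, and no statement is made on whether they changed.

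CT26 is a colon carcinoma line derived from a BALB/c mouse, labelled wild type. Cells were given 25 µM riluzole for 24 h (2 libraries) or the solvent DMSO for the same time (2 libraries, the controls), and polyadenylated RNA was sequenced. Riluzole is a drug used in amyotrophic lateral sclerosis. The labels do not state whether the 2 libraries of a group are separate cultures, so the spread between them may be technical. The libraries held 10393602 and 9191717 counts in listed genes with riluzole and 9898486 and 12989475 in the controls, and replicates differed beyond counting noise, by a chi-square of 3.20 per gene between the riluzole libraries and 3.56 between the controls. Among markers of the line's labelled type, Krt18, Krt20 and Krt8 were listed of 8, and Epcam, Cdh1, Krt19, Vil1 and Cdx2 were not. All 3 keratin genes were higher with riluzole (log2 fold changes 0.51, 0.77 and 2.08; edgeR Benjamini-Hochberg adjusted p 4.01e-06, 3.15e-09 and 0.0087). Krt20 had 831 and 824 normalised counts in riluzole libraries against 508 and 466 in controls, and Krt8, a gene of few counts here, had 15.5 and 17.7 in riluzole libraries against 4.39 and 3.36 in controls. None of 6 leukocyte or 3 endothelial markers was listed. Only genes at p below 0.05 were listed, so a marker that was not may still have been expressed. The collagen genes Col1a1 and Col1a2 were the 2 of 5 fibroblast markers listed, both lower (log2 fold changes -0.34 and -0.16). Col1a1 had 1493 and 1348 normalised counts in riluzole libraries against 1943 and 1667 in controls. Col1a2 was abundant, with 21442 and 20801 in riluzole libraries against 24585 and 22541 in controls. The part of the keratin and collagen changes in the results was not tested. In RNA of whole cultures, fewer cells of one kind and less RNA per cell cannot be told apart.

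Traffic between nucleus and cytoplasm passes through the nuclear pore complex, a ring of nucleoporins set in the nuclear envelope. Carriers of the karyopherin family bind a cargo signal: importins bring proteins in and exportins take proteins and RNA out. The direction is set by Ran, a small GTPase held in its GTP form in the nucleus by the exchange factor Rcc1, which sits on chromatin. Bulk mRNA leaves by another route, on the Nxf1-Nxt1 heterodimer loaded with the help of the TREX complex. In mitosis, when the envelope of animal cells breaks down, several of these proteins work at kinetochores and the spindle, and the pores are rebuilt afterwards.

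Nearly all members were lower with riluzole. With edgeR (quasi-likelihood test, Benjamini-Hochberg adjustment over 12601 genes, the number implied by the deposited p-values), 38 of the 40 fell and 2 rose at an adjusted p under 0.05. The fit saw only the listed genes, already selected at p below 0.05 in these libraries, so its p-values are a second test of selected genes. It called 4273 listed genes, against 3132 by the authors' deposited adjusted p. Of all listed genes, 58.2% were called lower, 41.3% higher and 99.5% in either direction, so only the direction and the size carry information, not the share called. The pore, the importins, the Ran cycle and the mRNA export members fell without exception among those listed. The exportin gene Xpo1 and the germline-type nucleoporin gene Nup210l were the 2 that rose. The falls were of ordinary size: the median log2 fold change of the members was -0.29, against -0.19 over all listed genes and -0.30 over the listed genes called lower. Members ranged from -0.66 for Kpna2 to 0.92 for Nup210l (SD over members 0.24). Both riluzole libraries lay below both controls for 38 members and above both for 2. Among all listed genes this held for 58.5% and 41.4%, so a gap between the groups in a single gene is no separate evidence. Of all reads assigned in each library, as implied by the deposited FPKM, the 40 genes took 0.635% and 0.642% with riluzole and 0.785% and 0.796% in the controls, a share that does not depend on the size factors. By the adjusted p that the authors' deposited table carries, 32 members were lower and 2 higher, against 44.7% and 28.3% of listed genes. For many single genes the call depended on the scaling: with TMM factors computed over the listed genes, 22 members were called lower (38.6% of listed genes) and 2 higher (41.4%), and with size factors from DESeq2 over those genes, 13 and 2 (24.3% and 41.4%).

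**Figure D1:**
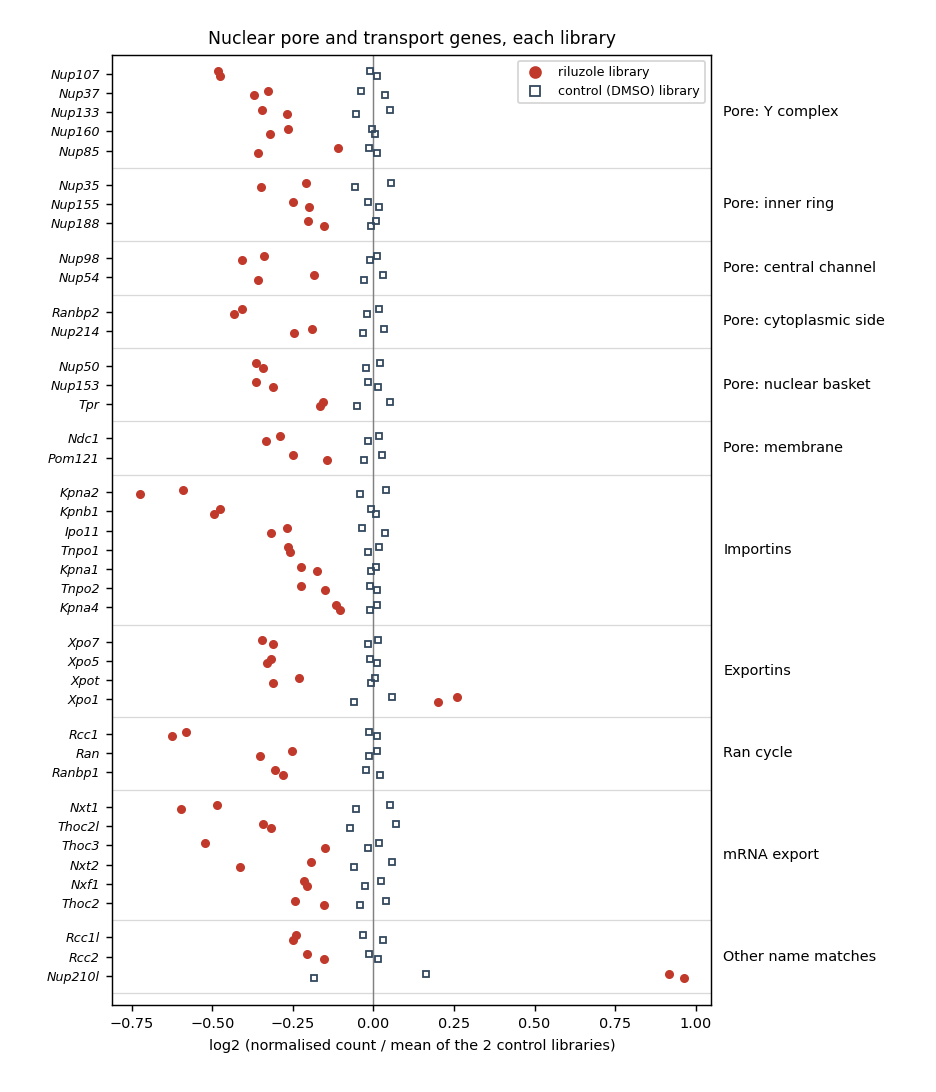
Each row is a member, and each point is a library: the log2 of its normalised count over the mean of the 2 controls, for riluzole (filled circles) and control (open squares) libraries, by role. The riluzole points lie left of both controls for 38 genes and right of them for Xpo1 and Nup210l.

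The stretches upstream of 4 members are shown as a description, and no link between them and the changes was tested. The members are the classical importin pair Kpna2 and Kpnb1, the Ran exchange factor gene Rcc1, and Xpo1, which ran the other way. Each is the 250 bases before a RefSeq start on GRCm38.p6, read 5′ to 3′ on the gene's strand, with motif matches in capitals. The windows are Kpna2 at chr11:106999526-106999775 (minus strand), Kpnb1 at chr11:97187893-97188142 (minus), Rcc1 at chr4:132345751-132346000 (minus) and Xpo1 at chr11:23255791-23256040 (plus).
Kpna2: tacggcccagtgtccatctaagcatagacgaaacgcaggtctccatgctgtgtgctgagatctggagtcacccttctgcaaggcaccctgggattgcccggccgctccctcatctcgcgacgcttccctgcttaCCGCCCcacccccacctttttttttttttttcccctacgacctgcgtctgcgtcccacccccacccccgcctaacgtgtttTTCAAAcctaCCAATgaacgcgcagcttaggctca
Kpnb1: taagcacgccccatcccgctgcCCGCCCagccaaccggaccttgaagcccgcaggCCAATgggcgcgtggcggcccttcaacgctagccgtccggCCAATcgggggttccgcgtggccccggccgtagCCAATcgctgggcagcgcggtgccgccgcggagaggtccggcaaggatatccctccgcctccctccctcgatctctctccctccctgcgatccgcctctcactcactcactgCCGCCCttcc
Rcc1: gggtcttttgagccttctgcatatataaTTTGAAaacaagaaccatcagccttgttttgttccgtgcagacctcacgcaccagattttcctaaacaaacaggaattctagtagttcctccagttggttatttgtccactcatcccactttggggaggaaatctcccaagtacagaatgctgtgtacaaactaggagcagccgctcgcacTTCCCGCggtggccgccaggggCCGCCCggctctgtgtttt
Xpo1: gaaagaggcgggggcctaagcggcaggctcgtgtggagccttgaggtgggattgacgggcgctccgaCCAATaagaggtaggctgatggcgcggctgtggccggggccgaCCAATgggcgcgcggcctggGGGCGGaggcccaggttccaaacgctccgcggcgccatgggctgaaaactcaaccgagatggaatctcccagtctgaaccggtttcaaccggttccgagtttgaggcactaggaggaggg
The motifs searched, on both strands, were CCAAT, the GC box GGGCGG, the E-box CACGTG, the ETS core CCGGAA, the E2F-type GCGGGAA, the NRF1 half-site TGCGCA and the CHR element TTTGAA. Kpnb1 held 3 CCAAT matches and Xpo1 held 2, with GC boxes in both. Kpna2 held a CCAAT and a CHR match close to its start and a GC box farther off, and Rcc1 an E2F-type, a GC box and a CHR match. GC box letters were in all 4 windows and CCAAT letters in all but that of Rcc1.

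RefSeq windows were matched for 33 of the 40 members (40 windows, some overlapping within a gene). CCAAT was in 18 of 40 member windows (45.0%), 35.0% of the windows of listed genes and 33.8% of all 32851 windows. The CHR letters were in 12 (30.0%), against 11.4% of listed and 16.0% of all windows, and the NRF1 half-site in 6 (15%: Nup214, Nup50, Xpo5, Xpot and 2 windows of Nxf1), against 11.8% and 6.43%. GC boxes were in 26 (65.0%, against 59.2% of listed and 32.7% of all windows), and ETS cores in 8 (20%, against 21.2% and 12.03%). E-boxes were in 6 (15%, against 8.53% and 6.02%) and E2F-type letters in 5 (12.5%, against 7.39% and 3.82%). These are counts of letters in short windows, not of genes, and were not tested. Overlapping windows with the same matches were counted separately for Nup37 (CCAAT, CHR, ETS), Nxt1 (CCAAT, ETS, GC box) and Nxf1 (NRF1, GC box).

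The steepest fall of any member was that of Kpna2, and its partner Kpnb1 fell most of the other importins. Together they carry classical nuclear localisation signals. Kpna2 (chromosome 11, 106879455 to 106890367, minus strand, mm39) encodes importin alpha 1, the adaptor that reads the signal. It had 1821 and 1998 normalised counts in riluzole libraries against 2928 and 3095 in controls (1909 ± 125 and 3011 ± 118, SD, n = 2 each). Both riluzole values were far below both controls, a log2 fold change of -0.66 ± 0.05 (SE), with an edgeR Benjamini-Hochberg adjusted p of 1.06e-11; it ranked 163 by size of fall among the listed genes called lower. Kpnb1 (chromosome 11, 97050540 to 97078707, minus strand) encodes importin beta 1, which ferries the adaptor and its cargo through the pore, and is the most abundant importin gene per length. Its normalised counts were 9922 and 10049.8 with riluzole and 14044 and 13884 in controls, groups that lie well apart, and it fell by 28.5% (log2 fold change -0.48 ± 0.04, SE; edgeR adjusted p 6.27e-11).

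The other listed importins fell less. Tnpo1, the transportin gene whose product imports hnRNP proteins, had 4665 and 4652 normalised counts with riluzole against 5515 and 5653 in controls (log2 fold change -0.26). Ipo11 had 950.2 and 983 with riluzole against 1214 and 1155 in controls (-0.29). Tnpo2, a close relative of Tnpo1, fell by 12.1%. The importin alpha genes Kpna1 and Kpna4 had the smaller log2 fold changes -0.20 and -0.11. Kpna4 had 4105 and 4068 normalised counts with riluzole against 4375 and 4441 in controls, close but not overlapping, and its call was lost with TMM factors, with the DESeq2 test and without any one of the 4 libraries (log2 fold change -0.12 to -0.10), and the DESeq2 size factors turned it to 0.06. In the authors' deposited table, the adjusted p of Kpna1 and of Kpna4 was above 0.05.

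All ratios in these results were chosen after the values were seen, so a gap between the groups in them is no separate evidence. Of the listed importin alphas, Kpna2 fell most and Kpna4 least. The FPKM of Kpna2 over that of Kpna4, a ratio within each library that no scaling can alter, was 1.38 and 1.53 with riluzole and 2.08 and 2.17 in controls. Relative to its partner Kpnb1, Kpna2 stood at 0.421 and 0.456 with riluzole and 0.478 and 0.511 in controls, values that come close to each other. With 2 libraries a group an exact permutation test of such a ratio cannot give a p below 0.333, so no test is given for any ratio here (added up over the 7 importins, FPKM was 240.4 and 242 with riluzole and 318 and 321 in controls). Kpna2 has 5 near-identical copies elsewhere in the annotation and Tnpo1 has 1, and Kpnb1, Ipo11 and Tnpo2 overlap other genes' exons, so reads may have been divided there.

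The Ran cycle fell at each of its 3 listed members, most at the exchange factor. Rcc1 (chromosome 4, 132059230 to 132080916, minus strand) had 1192 and 1228 normalised counts in riluzole libraries against 1854 and 1824 in controls, with replicates close together in both groups; it fell by 34.2% (log2 fold change -0.60 ± 0.05, SE; edgeR Benjamini-Hochberg adjusted p 1.09e-10). Ran itself (chromosome 5, 129097133 to 129101387, plus strand) was the most abundant member per length, at 352 and 376 FPKM with riluzole and 451 and 461 FPKM in controls. Its normalised counts were 16383 and 17541 with riluzole against 20716 and 21087 in controls (log2 fold change -0.30), apart in both groups. Ranbp1, which helps the GTPase-activating protein switch Ran off in the cytoplasm, had 1135 and 1117 with riluzole against 1401 and 1359 in controls (log2 fold change -0.29).

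Within the cycle, Rcc1 was lower relative to Ran in both riluzole libraries than in either control. The FPKM of Rcc1 over that of Ran was 0.05005 and 0.0482 with riluzole and 0.0616 and 0.0595 in controls, whereas that of Ranbp1 over Ran overlapped between groups, at 0.110 and 0.101 with riluzole and 0.107 and 0.102 in controls. Exons of Rcc1 overlap those of Snhg3, a non-coding gene on the same strand, and Ranbp1 overlaps Trmt2a; Ran has 1 near-identical copy.

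Exportins split. Xpo1 (chromosome 11, 23206041 to 23248249, plus strand) encodes CRM1, the exporter of proteins that carry a leucine-rich export signal. It had 3095 and 3224 normalised counts in riluzole libraries against 2586 and 2804 in controls, so both riluzole values lay above both controls; it rose by 17.0% (log2 fold change 0.23 ± 0.05, SE; edgeR Benjamini-Hochberg adjusted p 0.000258). The other 3 fell by similar amounts. Xpo5, whose product exports microRNA precursors, had 3446 and 3478 with riluzole against 4368 and 4305 in controls (-0.32). Xpo7 had 2445 and 2384 with riluzole against 2998 and 3064 in controls (-0.33). Xpot, the tRNA exporter gene and the most abundant of the 4 per length, had 6803 and 7189 with riluzole against 8402 and 8471 in controls (-0.27). In each of these 3 both riluzole values lay below both controls, with the riluzole libraries of Xpot farther apart than those of Xpo5 or Xpo7.

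Xpo1 was also called higher with the other scalings, the DESeq2 test, the replicate block and the count filter. By the authors' own adjusted p in their deposited table it was higher too. TMM and DESeq2 size factors moved the log2 fold changes of listed genes up, by a median of 0.10 and 0.17. These factors could therefore only enlarge a rise. With library totals implied by FPKM the log2 fold change of Xpo1 was 0.20. Leaving out 1 library gave 0.17 to 0.29. Per length, Xpo1 stood at 0.858 and 0.885 of Xpo5 with riluzole and at 0.566 and 0.622 in controls. Against Kpnb1, the main importin, it stood at 0.286 and 0.294 with riluzole and at 0.169 and 0.185 in controls. Neither ratio overlapped between the groups, but Xpo1 was set against genes that had fallen, after the values were seen. Xpo1, Xpo5 and Xpo7 have neither a near-identical copy nor an overlapping gene, while Xpot has 1 copy.

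**Figure D2:**
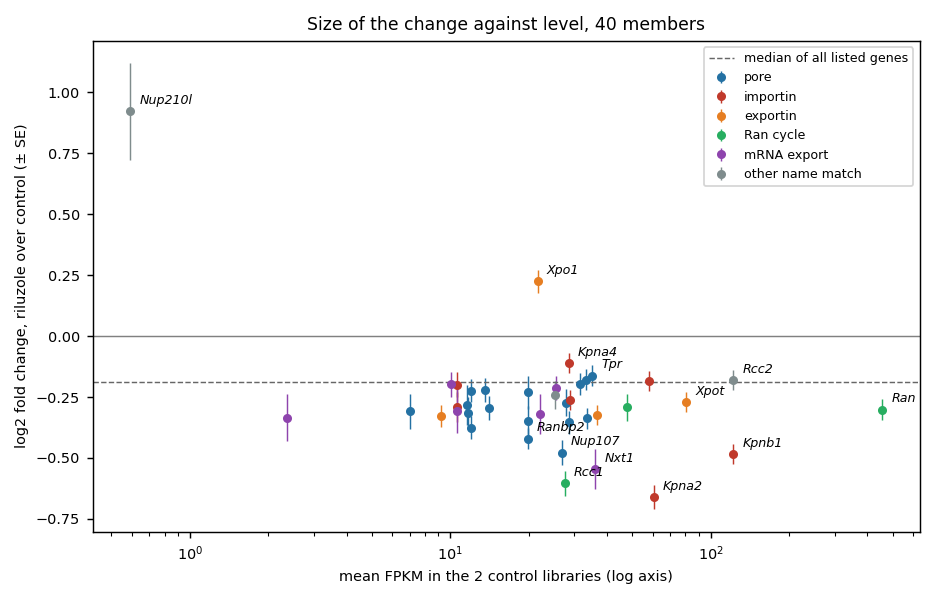
Each point is a member: its mean FPKM in the 2 controls (log axis) against its log2 fold change with riluzole (bars, SE from the edgeR test), coloured by role; the dashed line is the median of all listed genes. Kpna2, Rcc1, Nxt1, Kpnb1 and Nup107 lie lowest, and Xpo1 and Nup210l alone lie above 0.

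The pore members fell together. All 17 listed nucleoporin genes with a place in the pore were lower, between -0.48 and -0.16 on the log2 scale (median -0.29, SD over genes 0.09), a narrower range than the transport factors. By adjusted p in the authors' deposited table, all but Nup85 and Nup35 passed.

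The Y complex forms the outer rings of the pore and is recruited to kinetochores in mitosis. Nup107 (chromosome 10, 117586526 to 117628610, minus strand) fell most of all pore genes: it had 1288 and 1282 normalised counts with riluzole against 1804 and 1777 in controls (-0.48 ± 0.05, SE; edgeR Benjamini-Hochberg adjusted p 8.48e-09). Nup37 had 891 and 917 with riluzole against 1181 and 1123 in controls. Nup160 had 1713 and 1779.5 with riluzole against 2147 and 2133 in controls. Nup133 had 706 and 668 with riluzole against 819.7 and 880.4 in controls, the riluzole pair staying below the controls in each of these 3 scaffold genes (log2 fold changes -0.35, -0.29 and -0.31). Nup85 was the least certain: its riluzole libraries differed widely, at 911 and 1083, against 1179 and 1158 in controls, and its log2 fold change of -0.23 became -0.11 without riluzole replicate 1, where it was not called, and -0.36 without riluzole replicate 2.

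The inner ring, which anchors the channel, had the smallest median fall of the pore subcomplexes, a difference that was not tested. Nup155 had 2166 and 2093 normalised counts with riluzole against 2516 and 2459.6 in controls (-0.22). Nup188 had 3219 and 3108 with riluzole against 3563 and 3597 in controls (-0.18). Nup35, a membrane-binding member of the ring and the lowest of the 3 per length, had 529 and 583 with riluzole against 647 and 700.5 in controls (-0.28). Nup35 was not called without riluzole replicate 1 (-0.21) or control replicate 2 (-0.22).

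In the central channel and on its cytoplasmic face the falls ranged more widely than in the inner ring. Nup98, an FG-repeat nucleoporin that fills the channel and also binds Rae1, had 1971 and 2067 normalised counts with riluzole against 2596 and 2638 in controls (-0.38). Nup54, of the channel trimer, had 1251 and 1412 with riluzole against 1571 and 1636 in controls (-0.27). On the cytoplasmic side, Ranbp2 (chromosome 10, 58282742 to 58330178, plus strand) encodes the giant filament protein Nup358, which binds Ran and acts as a SUMO ligase. It had 2985 and 3033 with riluzole against 3972 and 4077 in controls (-0.42 ± 0.04, SE; edgeR Benjamini-Hochberg adjusted p 3.99e-09), the second largest fall of the pore genes. Nup214, also of the cytoplasmic face, had 1922 and 2001 with riluzole against 2231 and 2332 in controls (-0.22).

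On the nuclear side, the basket genes Nup153 and Nup50 fell alike and Tpr less. Nup153 had 3289 and 3168 normalised counts with riluzole against 4124 and 4037 in controls (-0.34). Nup50, whose product helps release cargo from importin alpha, had 1911 and 1884 with riluzole against 2386 and 2460.5 in controls (-0.35). Tpr, the filament protein of the basket, had 5682 and 5728 with riluzole against 6150.5 and 6604 in controls; its log2 fold change of -0.16 was not called without control replicate 2 (-0.11) and was 0.0040 under the DESeq2 size factors. The FPKM of Nup107 over that of Tpr was 0.618 and 0.610 with riluzole and 0.800 and 0.733 in controls, with no overlap between the groups. Nup107 had the largest and Tpr the smallest fall of the pore genes, and this pair was chosen after the values were seen. Of the membrane nucleoporins, Ndc1 had 790.4 and 815 with riluzole against 984 and 1008 in controls (-0.31). Pom121 had 2758 and 2564 with riluzole against 2989 and 3109 in controls (-0.20). Nup35 and Nup54 each have 1 near-identical copy, and Nup133, Nup188, Nup214, Pom121 and Tpr overlap other genes' exons.

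All 6 listed mRNA export members fell. Nxt1 (chromosome 2, 148514521 to 148517947, plus strand) is the partner of the export receptor Nxf1. It had 461 and 499 normalised counts with riluzole against 673 and 723 in controls. It fell by 31.5% (-0.54 ± 0.08, SE, edgeR Benjamini-Hochberg adjusted p 3.4e-06). Nxf1 itself had 1692 and 1679.9 with riluzole against 1917 and 1985 in controls (-0.21). Thoc2, the scaffold of the THO complex within TREX, had 1992 and 1875 with riluzole against 2155 and 2278 in controls (-0.20). Thoc3 had riluzole libraries that differed from each other, at 838 and 647, against 919.6 and 941 in controls. Its log2 fold change of -0.32 was -0.52 without riluzole replicate 1 and -0.15, not called, without riluzole replicate 2. The Thoc2-like gene Thoc2l, placed here by its name alone, and the second Nxf1 partner gene Nxt2 fell too (log2 fold changes -0.33 and -0.31). Leaving out 1 library ended these calls: Thoc2 without control replicate 2 (-0.16), Nxt2 without riluzole replicate 1 (-0.20) or control replicate 2 (-0.24), and Thoc2l without riluzole replicate 2 (-0.32) or control replicate 2 (-0.26). Thoc2l and Nxt2 also missed 0.05 by adjusted p in the authors' deposited table.

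Another 3 members match the name rule without a known place in pore, carrier or Ran cycle here. Nup210l, a paralogue of the membrane nucleoporin gene Nup210 known from the testis, rose: it had 114 and 111 normalised counts with riluzole against 51.6 and 65.6 in controls (0.92 ± 0.20, SE; edgeR Benjamini-Hochberg adjusted p 0.000361). It was also the least abundant member, at 1.14 and 1.10 FPKM with riluzole and 0.520 and 0.663 FPKM in controls. Rcc2, which encodes an RCC1-related protein of the mitotic chromosome surface, had 7892 and 7616 with riluzole against 8872 and 8698 in controls (-0.18). Rcc1l, whose product works in mitochondria, had 1051 and 1057 with riluzole against 1275 and 1221 in controls (-0.24).

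Genes of the same pathways that the name rule does not catch were taken from a written list of 54. Of these, 26 were listed, 18 lower and 8 higher, all called by edgeR. Over all listed genes edgeR called 58.2% lower, 41.3% higher and 99.5% in either direction. The DESeq2 test called 16 of the list lower and 6 higher. In the authors' deposited table the adjusted p gave 15 lower and 6 higher, against 44.7% and 28.3% of listed genes. Without the envelope and lamina, 13 of 28 were listed, 11 lower and 2 higher. Export adaptors and helicases made up the largest falls. Ddx39a and Ddx39b, the RNA helicases of TREX, had 2750.0 and 2916 normalised counts with riluzole against 4222 and 4298 in controls, and 5433 and 5749 with riluzole against 8067 and 8149 in controls (Benjamini-Hochberg adjusted p in edgeR 7.5e-12 and 1.19e-11). The adaptor gene Chtop had 3045 and 3102 with riluzole against 4085 and 4126 in controls (-0.42). Sarnp, Alyref, Poldip3 and the cap-binding gene Ncbp1 also fell (-0.59, -0.40, -0.40 and -0.25). Ncbp2, whose product is the small partner of Ncbp1 in the cap-binding complex, rose instead (0.54). It had 405 and 412 in riluzole libraries against 274 and 288 in controls. Ncbp2, Ddx39a, Ddx39b, Sarnp and Ncbp1 overlap other genes' exons, and Chtop, Alyref and Sarnp have 1 near-identical copy each. Of the pore genes outside the rule, 4 fell. Seh1l and Sec13, of the Y complex, had 1595 and 1628 normalised counts with riluzole against 1962 and 2011 in controls, and 2342 and 2380.5 with riluzole against 2763 and 2742 in controls (log2 fold changes -0.30 and -0.22). Rae1, whose product binds Nup98, had 2002 and 2135 with riluzole against 2375 and 2474 in controls (-0.23). Gle1, of the cytoplasmic face, had 891 and 903 with riluzole against 1087 and 1049 in controls (-0.25). In all 4 the groups lay apart, as in nearly all listed genes, and Seh1l overlaps another gene's exons. The basket gene Zc3hc1 rose, with 1699 and 1725 in riluzole libraries against 1538 and 1493 in controls (0.18). Its call was lost without control replicate 2 (0.15), in the DESeq2 test (adjusted p 0.0597) and by adjusted p in the authors' deposited table (0.0962).

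**Figure D3:**
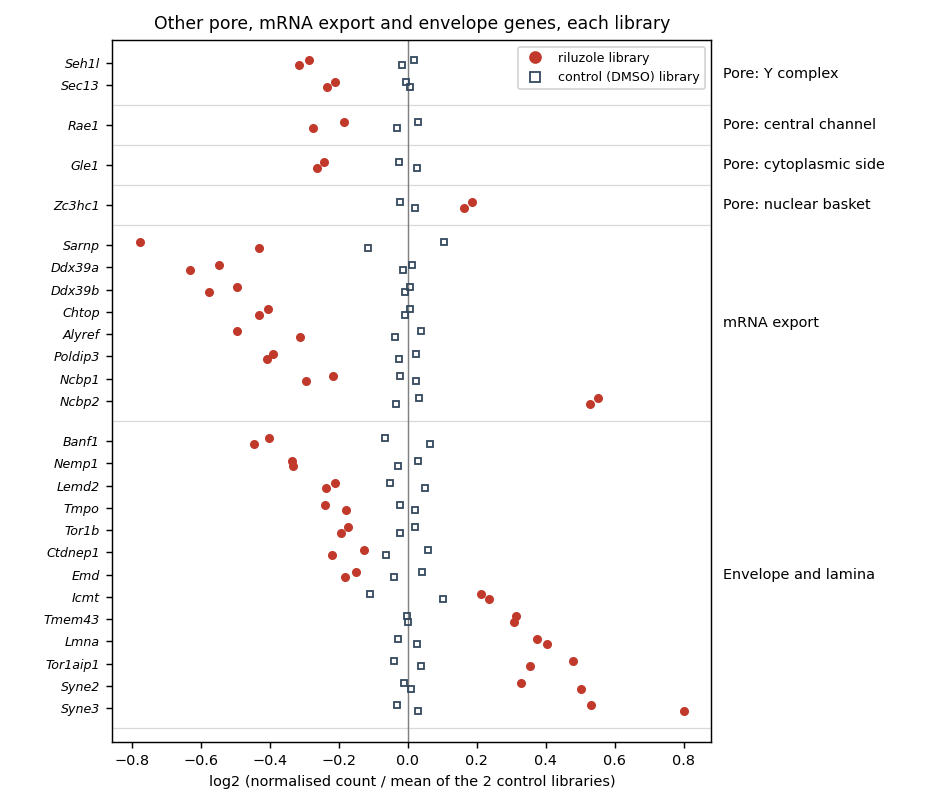
The 26 listed genes of the wider pathway list, each library as the log2 of its normalised count over the mean of the 2 controls (riluzole filled circles, controls open squares). Export genes other than Ncbp2 lie left of the controls, while the envelope and lamina genes divide, 7 to the left and 6 to the right.

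The genes of the envelope that holds the pores were divided, as the listed genes were. Of 26 envelope and lamina genes, 13 were listed, 7 lower and 6 higher. Over all listed genes, 58.2% were called lower and 41.3% higher. All 6 rises were called with TMM factors and with DESeq2 size factors too. Of the 7 falls, TMM factors left 3 called (Banf1, Lemd2 and Nemp1) and DESeq2 size factors 1 (Banf1). Listed genes behaved alike: 41.4% were called higher with either, and 38.6% and 24.3% lower. Both scalings moved the log2 fold changes of listed genes up, by a median of 0.10 and 0.17. Lmna, the lamin A/C gene, had 15105 and 14802 normalised counts with riluzole against 11636 and 11209 in controls and rose by 30.9% (edgeR Benjamini-Hochberg adjusted p 6.77e-09). The nesprin gene Syne3 had 1783 and 1477 with riluzole against 1045 and 1002 in controls (0.68), and its relative Syne2 had 2389.6 and 2117 with riluzole against 1698 and 1675 in controls (0.42). Another 3 risers encode membrane proteins of the envelope or endoplasmic reticulum. Tor1aip1 had 1064 and 1161 with riluzole against 855 and 809.8 in controls (0.42). Tmem43 had 2401 and 2409 with riluzole against 1942 and 1937 in controls (0.31). Icmt had 1264 and 1243 with riluzole against 1152 and 995 in controls (0.23), and was not called by the DESeq2 test (adjusted p 0.0507) or in the authors' deposited table (0.0861). Banf1, whose product bridges chromatin and envelope, had 2175 and 2239.9 with riluzole against 3096 and 2827 in controls (-0.42). Tmpo, Lemd2, Nemp1, Tor1b, Ctdnep1 and Emd fell too (-0.34 to -0.17). Tor1aip1, Icmt, Banf1, Tmpo, Nemp1 and Emd overlap other genes' exons. Without control replicate 2, Icmt (0.12), Tor1b (-0.16), Ctdnep1 (-0.11) and Emd (-0.13) were not called, nor were Ctdnep1 (-0.13) and Emd (-0.15) without riluzole replicate 1.

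The number of falls that passed depended on the scaling. TMM factors and DESeq2 size factors, both computed over the listed genes, moved every log2 fold change up, by a median of 0.10 and 0.17. Both were computed over genes selected for a difference, whose median log2 fold change was -0.19. Library totals implied by FPKM, which rest on all assigned reads, moved the log2 fold changes by a median of -0.025. Which scaling is nearer to the truth was not tested. With the DESeq2 size factors, 13 members were still called lower: Kpna2, Kpnb1, Rcc1, Ran, Nxt1, Nup107, Ranbp2, Nup98, Nup50, Nup153, Nup37, Xpo5 and Xpo7. Library totals implied by FPKM left all 38 falls and both rises in place (median -0.32).

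**Figure D4:**
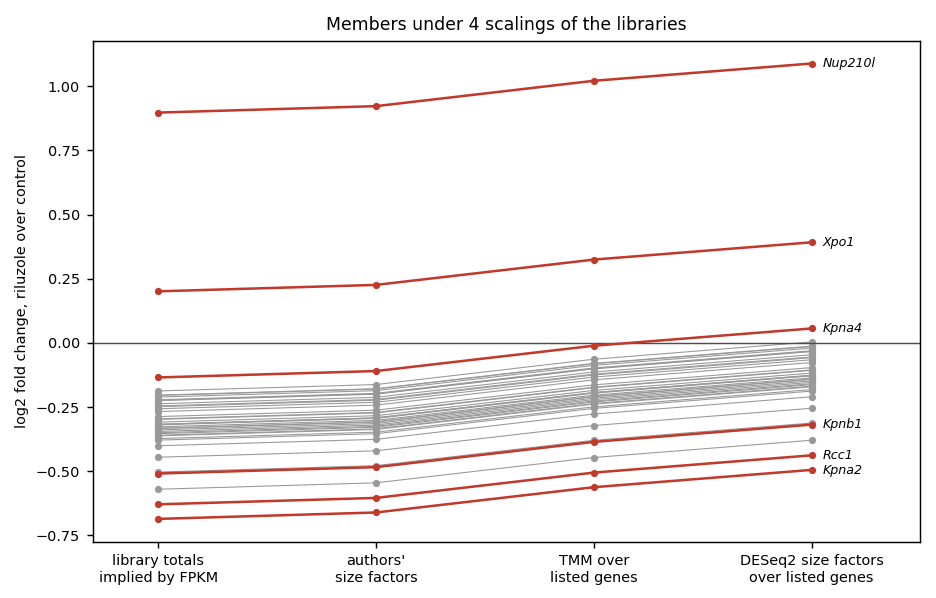
Log2 fold change of each of the 40 members (lines) under 4 scalings of the libraries, with 6 members named in red. The whole set shifts upward from left to right, Kpna4 and, barely, Tpr (grey) cross 0 under the last scaling, and Kpna2, Rcc1 and Kpnb1 stay below and Xpo1 and Nup210l above 0 throughout.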

How the data were processed

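Polyadenylated RNA of CT26 cells was measured in 4 libraries, 2 riluzole and 2 control, grouped by the labels. Per the submitters' processing notes, reads were handled with build mm39, HISAT2 and featureCounts 1.5.0-p3, and edgeR and DESeq2 are named too; the annotation release, strandedness and tool settings were not given in those sources. The authors deposited raw counts per gene, a normalised signal (count over a library's size factor, which was 1.03 and 0.904 for riluzole, 0.911 and 1.19 for control), FPKM, the log2 fold change and p-values, per the file headers, for genes with p under 0.05 only.

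Both tables were joined, 4295 genes. The main result is edgeR 4.0.16's quasi-likelihood test (R 4.3.3), riluzole against control, no covariate, no filter, effective library sizes from the authors' size factors, Benjamini-Hochberg over 12601 genes. The fit used the listed genes alone, so its dispersions came from genes already selected for a difference. SE is the log2 fold change over the square root of F. The test was first run on simulated counts in which most genes did not differ. The listed genes were all selected for a difference, so that run does not check the test in this setting. Alternatives were TMM, DESeq2 1.42.0 and implied-total scalings, a filter at a mean normalised count of 100, the DESeq2 test, the authors' adjusted p, a replicate block and leaving out each library. Copies (BLAST+ 2.17.0, 95% identity over 200 bases) and overlaps (bedtools 2.31.1, 50 bases of exon) were found by gene identifier in GENCODE M21, GRCm38. Upstream windows came from RefSeq.

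Members and lists were chosen with earlier results of these data known. Values in every library are given for the 4 members of each role class (pore subcomplexes apart) with the smallest adjusted p, for risers and for the most abundant of each class; outside the rule, the top 3 of each class and every riser. The values of Nup85, Kpna4 and Thoc3's omissions, the ratios and the motifs were chosen after values were seen.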

Additional observations from a re-analysis of the deposited data

How the results depend on the processing

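The count of members called lower, 38, was 22 with TMM factors and 13 with size factors from DESeq2, each over the listed genes, and the median log2 fold change of the members, -0.29, was -0.19 and -0.13. These factors moved the log2 fold changes of the listed genes up, by a median of 0.10 and 0.17. Why the scalings differ was not tested. With DESeq2 size factors the wider list had 8 lower genes in place of 18. Of all listed genes, 24.3% were called lower in place of 58.2%. Kpna4 and Tpr changed sign with those factors (log2 fold changes 0.056 and 0.0040). A filter at a mean normalised count of 100 removed Nup210l and left 1 member called higher. Among the 22 members with neither a copy nor an overlapping exon, an alternative chosen after seeing the data, 20 fell and 2 rose. With the DESeq2 test 33 members were lower and 2 higher, and by the authors' deposited adjusted p 32 and 2. Leaving out 1 library gave 32 to 37 members lower and 2 higher, a median of -0.31 to -0.26, and 15 to 18 lower and 6 to 8 higher genes of the wider list. The 2 libraries that share a number did not pair in the labels, and their deviations correlated at 0.08 over 3998 genes; with the replicate number as a block, 38 members were lower and 2 higher (median -0.29), with 18 lower and 8 higher genes of the wider list. In 11 alternatives 15 of the 40 members and 14 of the 26 wider genes kept their call wherever they were tested. With 2 libraries a group, depth limits Nup210l most, at 47 to 118 raw counts.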
